A study of Homo sapiens with 3 samples.

Results

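The genes described here are 51 components of the DNA replication machinery and of its deoxynucleotide supply, read in SH-SY5Y, an established human neuroblastoma cell line. They were chosen by name, and all 51 were found among the 60660 genes of the deposited table by their Ensembl identifiers. The series holds 1 group of 3 RNA-seq libraries, named replicates 1, 2 and 3, each from a separate flask at about 60% confluency. No treatment, second genotype or second line is given in the labels, so a gene can be set only against a fixed level or against another gene. Values are FPKM, read counts scaled by transcript length and library size, and errors are SDs over the 3 libraries (n = 3). The p-values measure the spread between these flasks of 1 line.

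DNA replication starts at origins, where the origin recognition complex, CDC6 and CDT1 load the ring-shaped MCM2-7 helicase in G1. In S phase the CDC7-DBF4 kinase and cyclin-dependent kinases switch the loaded rings on by adding CDC45 and GINS. Polymerase alpha-primase then lays primers, RFC loads the sliding clamp PCNA, and polymerases delta and epsilon copy the strands. Many of these genes are known targets of E2F transcription factors, which are released from the retinoblastoma protein as cells commit to S phase.

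The label of the line was checked against fixed markers. All 10 sympathoadrenal and neuronal markers were called above 1 FPKM, with a summed level of 5536 to 5649 FPKM per library. The 6 leukocyte markers summed to 0.172 to 0.618 FPKM and the 5 endothelial markers to 0.044 to 0.136, with CD3E and CDH5 listed at 0 throughout. The 5 epithelial markers summed to 1.76 to 3.44 FPKM with KRT5 listed at 0, and the 5 fibroblast markers to 50.1 to 57.2, most of it PDGFRB and DCN. Of the 5 fibroblast markers 4 were also called above 1 FPKM and 2 above 10, so this list was not absent. The steps between low values correspond to about 21.6 M, 28.6 M and 43.7 M reads in replicates 1, 2 and 3. TOP1, which has 1 annotated transcript, then rests on about 3500, 4000 and 7100 reads, a counting error of at most 1.69%.

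Replication genes were expressed throughout, over a wide range. Of the 51, 50 have a value in every library, and all 50 were called above 1 FPKM (limma's moderated test on log2(FPKM + 0.1), Benjamini-Hochberg adjusted over 31736 genes), where 45.5% of all genes tested and 70.6% of protein-coding genes were called above. Above 10 FPKM 43 members were called, against 25.1% of all genes and 44.2% of protein-coding genes. Above 50 FPKM 14 members were called, against 6.82% of all genes and 12% of protein-coding genes. Only MCM9 was called below 10 FPKM, where 68.1% of all genes were, and 25 members were called below 50 FPKM, where 89% were. The median over the 50 members was 41.4 FPKM, beside 1.08 FPKM over all genes tested and 9.13 over protein-coding genes. POLD2 at the top and MCM9 at the bottom differed 84.7-fold in mean FPKM.

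**Figure D1:**
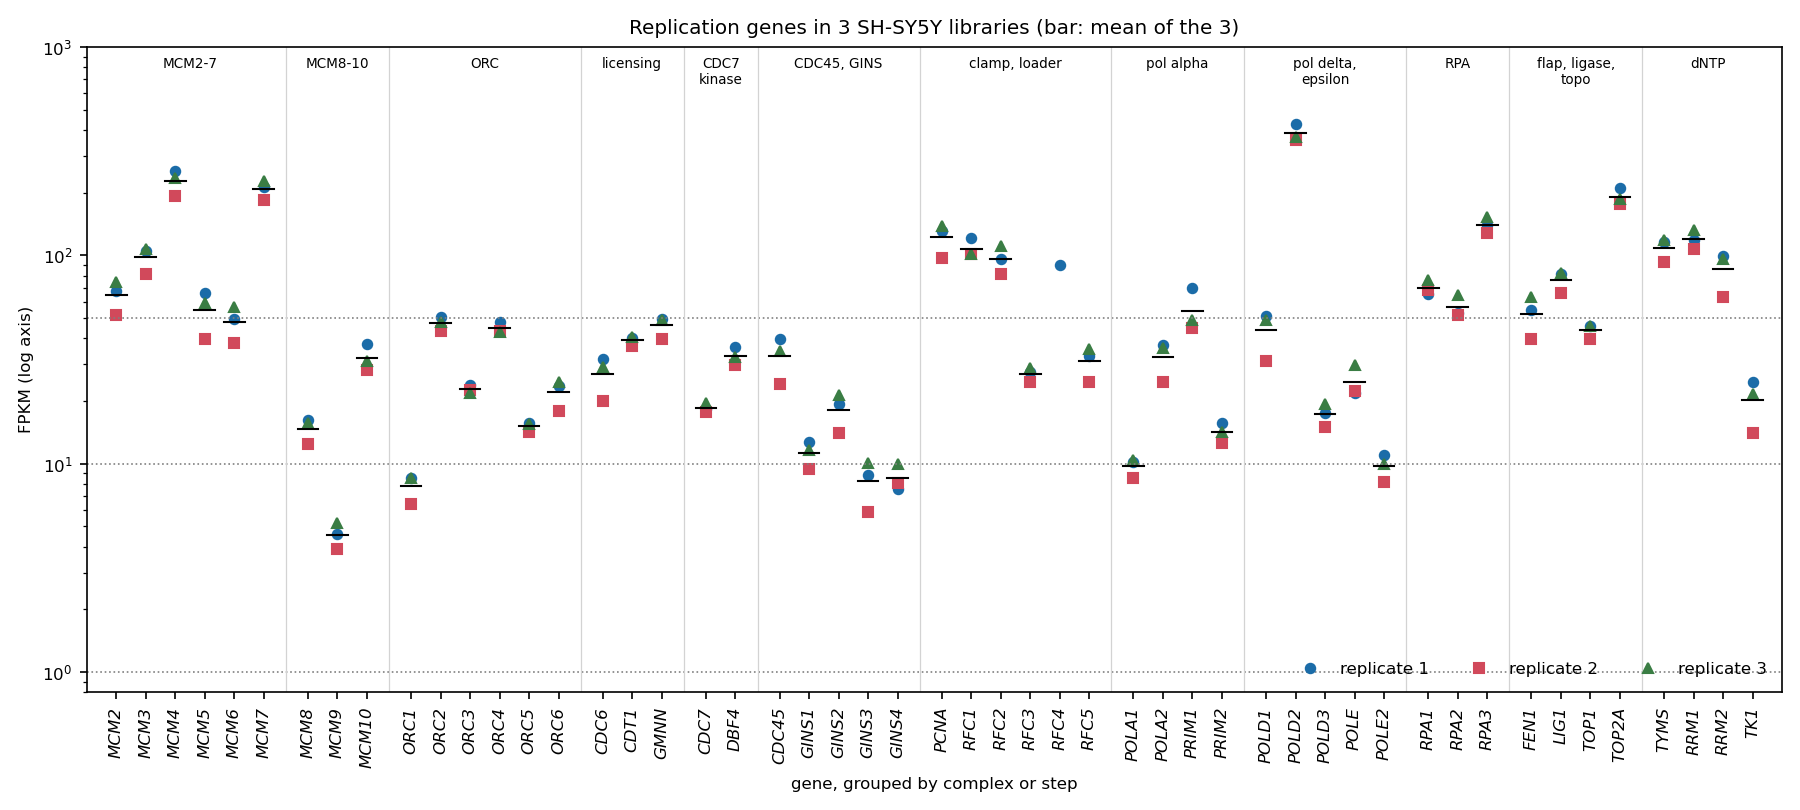
FPKM (log axis) of each replication gene in replicates 1, 2 and 3 of SH-SY5Y, grouped by complex or step, with the mean as a bar and dotted lines at 1, 10 and 50 FPKM. POLD2 is highest and MCM9 lowest, the red squares of replicate 2 lie lowest in 45 of 50 genes, and RFC4 has a value in replicate 1 only.

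Genes of the MCM2-7 helicase, the motor that unwinds DNA ahead of the fork, were expressed at unequal levels. MCM4 stood at 253, 192 and 235 FPKM in replicates 1, 2 and 3, and MCM7 at 213, 184 and 227. MCM3 followed at 105, 81.2 and 107 FPKM. These 3 lay above 50 FPKM in every library and were called above it (log2 over the level 2.17, 2.05 and 0.96, with limma adjusted p = 0.000269, 0.000191 and 0.00339 for MCM4, MCM7 and MCM3). MCM2 (64.5 ± 11.8 FPKM), MCM5 (54.9 ± 13.7) and MCM6 (47.9 ± 9.34) were not separated from 50 FPKM. The order of the 6 subunits, which form 1 ring with a single copy of each, was the same in all libraries, and the highest exceeded the lowest 4.79 ± 0.523-fold in FPKM.

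The MCM relatives outside the ring were lower. MCM10, which helps to activate the helicase, stood at 37.3, 28.1 and 31.2 FPKM. MCM8 (16.2, 12.4 and 15.6 FPKM) and its partner MCM9 (4.57, 3.89 and 5.19 FPKM), which act together in recombination repair, were the lower pair, and their values do not overlap. MCM8 exceeded MCM9 by a log2 difference of 1.67 ± 0.12 within libraries, and MCM2 exceeded MCM10 by 0.99 ± 0.22. MCM9 shares 137 of its exonic bases with ASF1A on the other strand (10.9 ± 0.202 FPKM). The library kit was stranded, but whether the counting used strand is unknown here, so values of genes with such partners are uncertain. Partners on the other strand overlap 19 members and are higher than the member for 5. Partners that are lower or have no value can share more, with 39.1% of the exonic bases of TYMS, 22.7% of MCM2 and 21.2% of GINS4. The GINS4 partner had 7.71 FPKM, close to GINS4 itself. Same-strand genes without a value share 35.1% of POLA2, 20.2% of RRM2 and 14.9% of PRIM1.

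Among the origin recognition genes, ORC1 was the lowest in every library. ORC1, the subunit whose protein is degraded and rebuilt over the cell cycle in human cells, had 8.51, 6.42 and 8.51 FPKM and was not separated from 10 FPKM (limma adjusted p = 0.0573). ORC2 (50.8, 43.1 and 47.6 FPKM) and ORC4 (47.9, 43.5 and 42.7) were the highest, with ORC3 (22.8 ± 1.00 FPKM), ORC6 (22.04 ± 3.66) and ORC5 (15.1 ± 0.787) between. Within each library ORC1 lay below ORC2, on average by -2.59 ± 0.13 log2. The ORC genes other than ORC1 and ORC6 belonged to the members that varied least, with a CV of 4.39% for ORC3 and 5.20% for ORC5, against a median of 14.1% over the members.

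The licensing factors lay close together. CDC6, the ATPase that helps ORC to load the rings, had 31.8, 20.0 and 29.02 FPKM, with replicate 2 below the others. CDT1, its partner in loading, had 40.0, 36.8 and 40.5 FPKM, and GMNN, which encodes the CDT1 inhibitor geminin, 49.6, 39.7 and 49.0. CDT1 lay below GMNN by a log2 difference of -0.23 ± 0.11 and CDC6 below CDT1 by -0.56 ± 0.28, each in 3 of 3 libraries. The kinase gene CDC7 (18.3, 17.6 and 19.5 FPKM) lay below DBF4, which encodes its activating subunit (36.4, 29.8 and 32.7 FPKM), by -0.83 ± 0.14.

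CDC45 and GINS, which complete the active helicase with MCM2-7, were the lowest group by median. Its median was 12.8, 9.47 and 11.6 FPKM in replicates 1, 2 and 3, against 86.5, 66.3 and 90.7 for MCM2-7. CDC45 had 39.6, 24.1 and 34.7 FPKM. GINS2 followed at 19.3, 14.0 and 21.3, while GINS1 (11.3 ± 1.68 FPKM), GINS4 (8.53 ± 1.26) and GINS3 (8.24 ± 2.18) were not separated from 10 FPKM. GINS2 exceeded GINS3 by a log2 difference of 1.15 ± 0.09. GSE1 (69.8 ± 3.96 FPKM) lies opposite GINS2 and shares 7 exonic bases with it.

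The sliding clamp and its loader were among the highest groups. PCNA, the ring that tethers polymerases to DNA, had 131, 96.8 and 138 FPKM, and RFC1, the large loader subunit, 121, 101 and 101. PCNA exceeded RFC1 in replicates 1 and 3 but not in replicate 2, so their difference of 0.17 ± 0.26 was within its spread. RFC2 stood at 96.0 ± 14.7 FPKM, RFC5 at 31.0 ± 5.63 and RFC3 at 26.9 ± 2.15. PCNA, RFC1 and RFC2 were called above 50 FPKM, and RFC3 and RFC5 below it, although all 5 loader proteins are present once per complex. RFC5 shares 186 exonic bases with WSB2 on the other strand (65.0 ± 2.91 FPKM). RFC4 had 89.6 FPKM in replicate 1 and no value in replicates 2 and 3, and EIF4A2, which overlaps it by 21 exonic bases on the other strand, had 309 FPKM in replicate 1 and lacked the same values.

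Polymerase genes showed the widest range within a group. POLD2, the accessory subunit that joins the parts of polymerase delta, had 427, 358 and 370 FPKM and was called above 50 FPKM (log2 2.94, SE 0.0888, limma adjusted p = 7.2e-05). POLD1, the catalytic subunit of that polymerase, had 51.3, 31.1 and 48.8 FPKM, and POLD3 17.3 ± 2.19. For polymerase epsilon, which copies the leading strand, the catalytic gene POLE had 21.9, 22.4 and 29.6 FPKM and its subunit POLE2 11.0, 8.16 and 9.99. POLD2 exceeded POLE2, the lowest of the 5, 39.9 ± 3.58-fold. POLD1 exceeded POLE by a log2 difference of 0.81 ± 0.38, and POLE2 lay below POLE by -1.33 ± 0.30, each in 3 of 3 libraries.

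Within polymerase alpha-primase the catalytic polymerase gene, POLA1, was the lowest, and the catalytic primase gene, PRIM1, was the highest. POLA1 had 10.2, 8.50 and 10.4 FPKM, while POLA2, its accessory subunit, had 37.1, 24.6 and 36.0. The primase genes were PRIM1, the catalytic subunit, at 69.4, 44.8 and 48.9 FPKM and PRIM2 at 15.6, 12.6 and 14.2. The 4 genes kept 1 order in all libraries. POLA1 lay below PRIM1 by a log2 difference of -2.45 ± 0.27 and below POLA2 by -1.72 ± 0.17. PRIM1 shares 33 exonic bases with NACA on the same strand, which stood at 1301 ± 60.5 FPKM.

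The single-strand binding protein RPA gave the most even complex of 3 or more core subunits after the licensing trio. RPA3 had 140, 128 and 153 FPKM, RPA1 65.2, 68.3 and 76.5, and RPA2 53.0, 51.9 and 64.4. RPA3 exceeded RPA2, the lowest, 2.49 ± 0.132-fold, and the mean of RPA1 was 0.499 times that of RPA3. RPA1 is 1 of the 3 members that were lowest in replicate 1. RPA3 and RPA1 were called above 50 FPKM, and RPA2 was not separated from it (limma adjusted p = 0.193).

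Of the genes that finish the lagging strand and relieve twisting, LIG1 and TOP2A were called above 50 FPKM. FEN1 and TOP1 were not separated from it. FEN1, the flap endonuclease that trims Okazaki fragments, had 54.9, 39.6 and 63.0 FPKM, and LIG1, the ligase that joins them, 81.4, 65.6 and 82.1. In each library FEN1 lay below LIG1, on average by -0.56 ± 0.17 log2. TOP2A, the topoisomerase of dividing cells, had 211, 177 and 187 FPKM, above TOP1 at 46.0, 39.7 and 45.7 in every library. TOP1 minus TOP2A was -2.12 ± 0.08 on the log2 scale, the smallest SD of the 18 gene pairs compared. FEN1 shares 166 exonic bases with TMEM258 on the other strand (145 ± 7.47 FPKM) and 49 with FADS2 on its own (121 ± 7.27), so its value is uncertain.

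For deoxynucleotide supply, the ribonucleotide reductase and thymidylate synthase genes were high and thymidine kinase was lower. RRM1, the large reductase subunit, had 119, 108 and 133 FPKM, and RRM2, the small subunit made in S phase, 99.1, 63.0 and 95.5. TYMS, which makes thymidylate from deoxyuridylate, had 115, 92.5 and 119 FPKM, and TK1, the cytosolic salvage kinase, 24.6, 14.0 and 21.7. RRM1 exceeded RRM2 by a log2 difference of 0.50 ± 0.26 and TYMS exceeded TK1 by 2.46 ± 0.25, each in 3 of 3 libraries. RRM2B, the small subunit outside S phase and a p53 target, had 59.1, 88.5 and 69.2 FPKM. RRM2 exceeded RRM2B in replicates 1 and 3 but lay below it in replicate 2, and the mean difference of 0.24 ± 0.65 turned to -0.01 without replicate 1.

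Of the 18 pairs, 16 had 1 sign in every library, with exact two-sided sign-flip p = 0.25 and 0.281 after Benjamini-Hochberg adjustment. The pairs were chosen with earlier results of these data known, so this count only describes them. The test over 3 libraries cannot fall below 0.25, and no pair difference could pass 0.05. PCNA against RFC1 gave exact p = 0.5 and RRM2 against RRM2B exact p = 0.75. Some calls against a level changed when 1 library was left out, which also weakens the test because fewer libraries remain. For CDT1 against 50 FPKM the log2 value moved little. It was -0.35 with all libraries and -0.37, -0.31 and -0.38 without replicates 1, 2 and 3. MCM8, GINS2, PRIM2 and TK1 were no longer called above 10 FPKM without replicate 1 or without replicate 3 (limma adjusted p 0.0528 to 0.0862). Above 50 FPKM, LIG1 and RRM2 lost the call without replicate 1 or replicate 3 (0.0505 to 0.0954) and RPA1 without replicate 3 (0.0585), while MCM2 gained it without replicate 2 (0.0300). Below 50 FPKM, CDT1 lost the call without any 1 of the libraries, CDC45 without replicate 2 or 3, POLA2 without replicate 1 or 3 and MCM10 without replicate 3 (limma adjusted p 0.0502 to 0.0994).

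Most replication genes had their lowest value in the same flask. Of the 50 members, 45 had their lowest value in replicate 2, while 3 were lowest in replicate 1 (GINS4, POLE and RPA1) and 2 in replicate 3 (ORC3 and ORC4). Replicate 2 was lowest in 42.3% of the 11559 genes whose means lie between those of MCM9 and POLD2, and in 43.9% of the protein-coding ones. The members' median difference between replicate 2 and the mean of replicates 1 and 3 was -0.32 on the log2 scale, with middle values from -0.47 to -0.19, with a median level of 80.2% of the others. Over the 9964 protein-coding genes of that range the median was -0.03, with middle values from -0.14 to 0.08. A difference of at least 0.25 log2 downward was seen in 31 of 50 members, against 11.1% of the genes and 9.23% of the protein-coding genes in the range. Each flask is a single sample, so no test of a library's own level is possible.

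The size of that difference depended on the member. TK1 in replicate 2 stood at 60.4% of the mean of the others, GINS3 at 61.8%, POLD1 at 62.2%, MCM5 at 63.2%, RRM2 and CDC45 at 64.8%, and CDC6 at 65.6%. At the other end were ORC3 (98.5%), RPA1 (96.4%), ORC4 (96.0%) and CDC7 (93.1%). By group the median log2 difference ran from -0.53 for CDC45 and GINS and -0.48 for deoxynucleotide supply, through -0.42 for MCM2-7, to -0.17 for RPA, -0.16 for ORC and -0.16 for the CDC7 kinase. Some groups were mixed. ORC1 (-0.40) and ORC6 (-0.43) lay below ORC2 to ORC5 (-0.19 to -0.02), and GINS4 (-0.10) lay above the rest of its group. All measured genes of MCM2-7 (6), MCM8-9 and MCM10 (3), licensing (3) and the CDC7 kinase (2) were lowest in replicate 2. So were those of the clamp and loader (5), polymerase alpha-primase (4), the flap, ligase and topoisomerase group (4) and deoxynucleotide supply (4). The remaining groups were ORC (4 of 6), CDC45 and GINS (4 of 5), polymerases delta and epsilon (4 of 5) and RPA (2 of 3). Without replicate 2 the median SD of the members' log2 values was 0.0964, against 0.206 with all libraries. It was 0.217 without replicate 1 and 0.223 without replicate 3. Replicate 2 was singled out from these same values, so a lower SD without it follows from that choice.

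**Figure D2:**
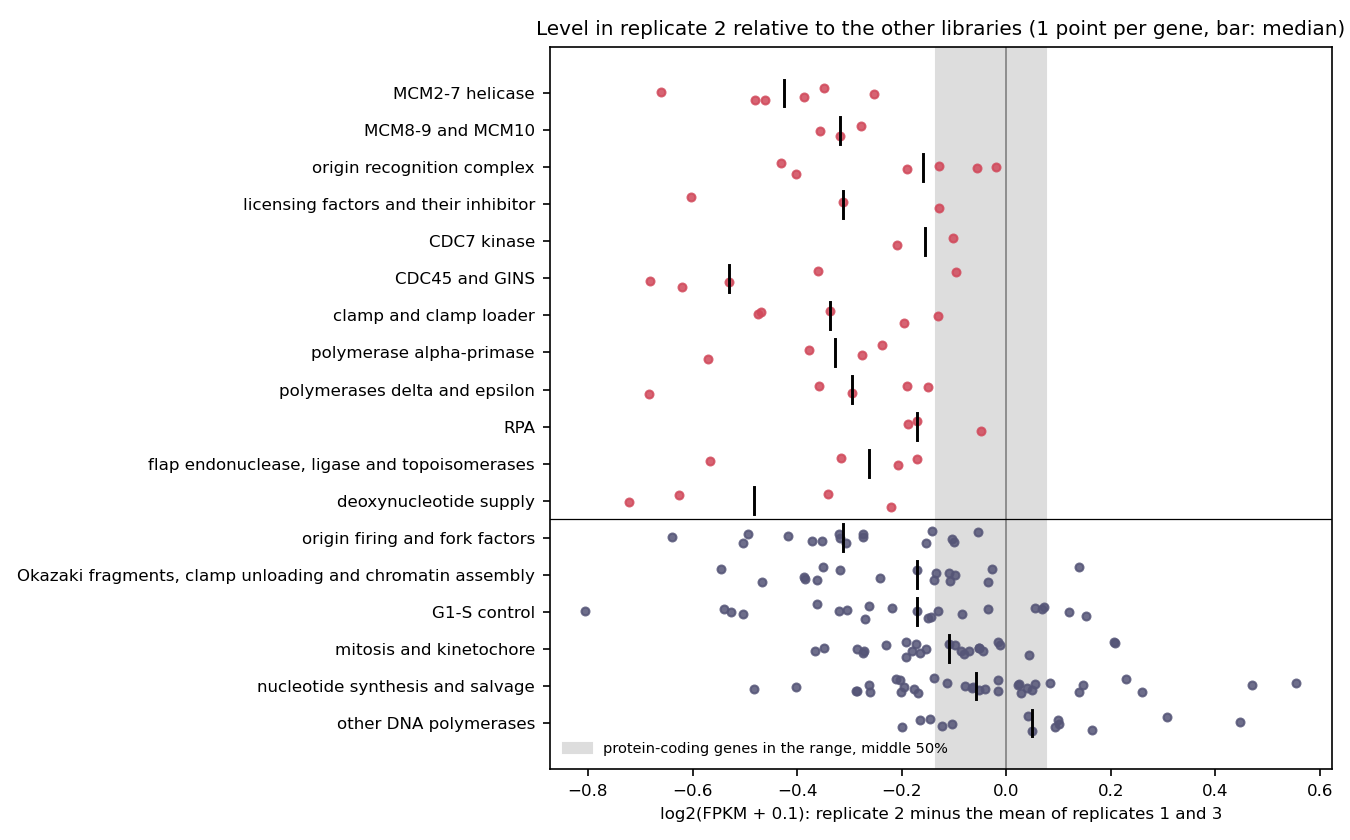
Difference in log2(FPKM + 0.1) between replicate 2 and the mean of replicates 1 and 3, 1 point per gene with a mean from 4.55 to 385 FPKM, for groups of replication genes (red) and other lists (grey), with medians as bars. The shaded band holds the middle 50% of protein-coding genes in that range (-0.14 to 0.08); the red points lie mostly to its left, and the other DNA polymerases lie around it.

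Other measures were set beside this pattern. Replicate 2 was neither the shallowest nor the deepest library. Rescaling by median ratios moved no library by more than 0.01 log2, too little to reorder most members, and left 45 lowest in replicate 2. Mitochondrial tRNA genes took 40.2% of summed FPKM in replicate 2 against 37.0% and 36.8% in replicates 1 and 3. Their part in the result was not tested. Rescaling to TPM with those genes left out of the total moved replicates 1, 2 and 3 by 0.19, 0.20 and 0.20 log2. Shifts this even can hardly reorder the libraries, and 45 members stayed lowest in replicate 2. Across quintiles of protein-coding genes by GC content of their transcripts the median difference was -0.04 to -0.01, and across quintiles by exonic length -0.05 to 0.00. Dates and passages of the flasks are unknown here.

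Other genes of the pathway gave related values. Of 16 origin firing and fork factors, 16 were called above 1 FPKM, 10 above 10 and 2 above 50, with a median of 15.8 FPKM. The kinase gene CDK2 (71.5 ± 8.26 FPKM), the scaffold gene TOPBP1 (67.6 ± 8.35) and the helicase gene RECQL4 (40.2 ± 5.74) were highest, and TICRR (6.30 ± 0.811) and MTBP (5.07 ± 0.639), whose products act together in origin firing, lowest. In this list 15 of 16 genes were lowest in replicate 2, with a median difference of -0.31. Of 18 genes for Okazaki fragments, clamp unloading and chromatin assembly, 17 were called above 1 FPKM, 12 above 10 and 4 above 50. RNASEH2B (296 ± 27.5 FPKM), the histone chaperone gene NASP (269 ± 41.1) and TOP2B (186 ± 11.5) were highest, ATAD5, which unloads PCNA, had 4.76 ± 0.238, and FAM111A (1.09 ± 0.445) was not separated from 1 FPKM. Of the 17 genes of this list in the members' range, 14 were lowest in replicate 2, with a median difference of -0.17.

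Accessory and repair polymerases are given next. The small subunits POLE3 (32.7 ± 4.26 FPKM) and POLE4 (19.8 ± 2.59) were called above 10 FPKM and POLD4 (6.09 ± 1.43) below it. Of these 3 genes 2 were lowest in replicate 2, with a median difference of -0.31. Among 14 other DNA polymerase genes, which serve repair, damage bypass and mitochondria, 13 were called above 1 FPKM and 11 above 10. POLB (68.2 ± 3.96 FPKM), MAD2L2 (51.9 ± 3.59) and the mitochondrial POLG (37.4 ± 0.891) were highest, POLQ had 6.49 ± 0.799, and POLN was called below 1 FPKM at 0.158 ± 0.0206. Of the 13 in the members' range 5 were lowest in replicate 2, with a median difference of 0.05.

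Nucleotide synthesis and salvage genes outside the members had a median above that of the members. All 36 were called above 1 FPKM, 33 above 10 and 15 above 50, with a median of 50.7 FPKM. NME2 (499 ± 6.71 FPKM), GUK1 (273 ± 5.69) and NME1 (203 ± 16.5) were highest, and NME1 and NME2 are neighbours joined by read-through transcripts, so the split between them is uncertain. SHMT1 (9.41 ± 1.49) and SAMHD1, which breaks down deoxynucleotides (3.87 ± 0.268), were lowest. Replicate 2 was lowest in 17 of the 34 genes in range, with a median difference of -0.06.

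The 25 mitosis and kinetochore genes, all above 10 FPKM, had a median of 57.0 FPKM, and 12 were called above 50. PRC1 (223 ± 23.7 FPKM), NUSAP1 (184 ± 12.03) and CENPF (134 ± 4.22) were highest, with AURKA (22.7 ± 1.03) and NDC80 (20.9 ± 1.88) lowest. Replicate 2 was lowest in 18 of 25, with a median difference of -0.11. The 25 genes of G1-S control, of which CDC25A is also in the origin firing list, had a median of 14.8 FPKM, with 23 called above 1 FPKM and 17 above 10. They were led by CCND1 (337 ± 34.3 FPKM), CDK4 (226 ± 21.8) and TFDP2 (66.3 ± 6.31), while CDKN2B (0.192 ± 0.136) was called below 1 FPKM and CCND2 was listed at 0. Of the 21 in range 15 were lowest in replicate 2, with a median difference of -0.17. Among 15 housekeeping genes 8 were in range, and 5 of these were lowest in replicate 2, with a median difference of -0.11. The differences between lists were not tested.

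**Figure D3:**
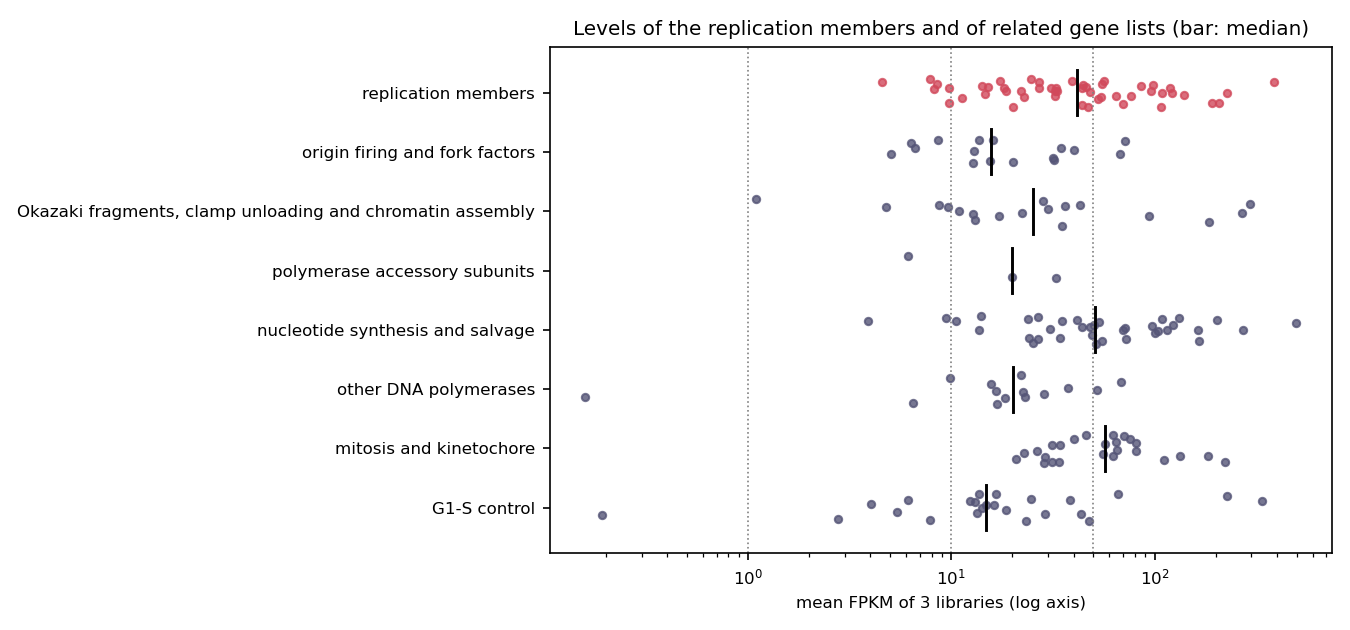
Mean FPKM of 3 libraries (log axis) for the replication members (red) and related lists (grey), 1 point per gene with a value in every library, medians as bars and dotted lines at 1, 10 and 50 FPKM. The median is 41.4 FPKM for the members, 57.0 for mitosis genes and 14.8 for G1-S control genes; CCND2, listed at 0, is not drawn.

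Promoter sequence was examined as a feature that the choice of members by name did not use. RefSeq promoter windows (GRCh38.p14, from 250 bases before to 50 bases after a transcript start) matched 45 of the 51 members by symbol, with 57 windows. The letters searched for E2F were TTTGGCGC and TTTCCCGC on both strands, whose reverse complements read GCGCCAAA and GCGGGAAA. Of the 45 members 19 (42.2%) held them in a window, against 750 of all 27305 genes with a RefSeq window, expressed here or not (2.75%). Of 8052 protein-coding genes in the members' range, 4.98% held them. By window the shares were 33.3% of 57 and 2.27% of 35116. A match is a description of the letters and does not show that a factor binds there.

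MCM6 and CDC7 each held the letters at 2 places, and the MCM6 stretch is shown because both of its matches, at -152 and -90 from the start, read on the strand of the gene. The stretch below ends at the base before the RefSeq start and overlaps no gene of GENCODE 29. Capitals mark the E2F letters, and the stretch also holds the CCAAT letters 2 times, read on the other strand as ATTGG.
MCM6 (chr2:135876444-135876603, minus strand): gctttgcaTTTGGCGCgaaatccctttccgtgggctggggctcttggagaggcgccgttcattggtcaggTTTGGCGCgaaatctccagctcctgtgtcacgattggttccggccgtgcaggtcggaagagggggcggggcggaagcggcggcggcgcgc

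Sites of other members are shown to let the letters be compared across steps of replication, from the helicase to thymidylate supply. Each is given with 10 bases on either side, along the gene's strand, with the E2F letters in capitals.
MCM3, helicase (chr6:52284899-52284926, minus strand): ggatggtacgTTTCCCGCcaccgcgggg
GMNN, licensing inhibitor (chr6:24775323-24775350, plus strand): ctgggtcggtTTTGGCGCgctctcactt
CDT1, licensing (chr16:88803744-88803771, plus strand): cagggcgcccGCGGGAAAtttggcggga
CDC7, kinase, distal site (chr1:91501034-91501061, plus strand): tgcagttcctTTTCCCGCcccccttcgg
CDC7, kinase, proximal site (chr1:91501068-91501095, plus strand): ccgacctgcgGCGGGAAAgtcgcgcgcc
GINS2, helicase activation (chr16:85688968-85688995, minus strand): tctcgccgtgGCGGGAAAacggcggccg
PCNA, clamp (chr20:5126664-5126691, minus strand): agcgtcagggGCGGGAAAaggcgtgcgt
POLE2, polymerase epsilon (chr14:49688202-49688229, minus strand): tgcggcggtgGCGCCAAAtcgcaaatat
LIG1, ligase (chr19:48170441-48170468, minus strand): cttcacccctTTTCCCGCcctcctccca
TYMS, thymidylate synthase (chr18:657604-657631, plus strand): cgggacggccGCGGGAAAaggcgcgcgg

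The 21 matches in 19 genes lay from 187 bases before to 27 bases after the start, 18 of them before it. CDC7 had matches at -68 and -34, PCNA at -59, RFC3 at -55, TYMS at -39, CDT1 at -35 and GINS2 at -31, while CDC6, GINS1 and MCM8 had theirs after the start, at 8, 6 and 27. The form GCGGGAAA was found 9 times, GCGCCAAA 5 times, TTTGGCGC 4 times and TTTCCCGC 3 times. The 19 genes came from 11 of the 12 groups; the remaining group is RPA, of which RPA1 alone had a window.

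**Figure D4:**
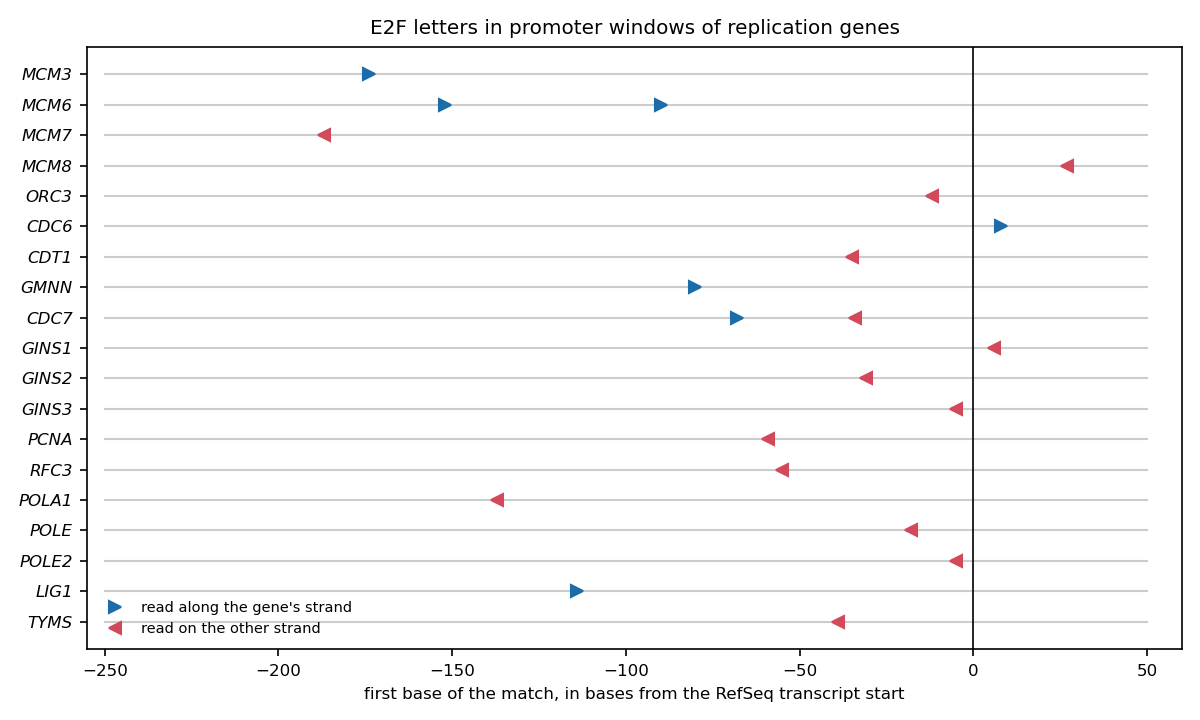
Position of E2F letters in the promoter windows of the 19 replication genes that hold them, in bases from the RefSeq start (vertical line), with the strand on which TTTGGCGC or TTTCCCGC is read shown by the arrow's direction and colour. Matches run from -187 (MCM7) to 27 (MCM8), and MCM6 and CDC7 have 2 each.

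Shares of other motifs are given as counts with no test. CCAAT, searched on both strands, was found in 27 of 45 members (60.0%). It was in 39.7% of all genes with a window and 44.1% of protein-coding genes in the members' range. Of the 21 mitosis genes with a window, 81.0% held it. The cell-cycle homology region letters TTTGAA and TTCGAA, both strands, were in 4 of 45 members (8.89%). They were in 19.5% of all genes with a window, 14.9% of protein-coding genes in the members' range and 16 of 21 mitosis genes (76.2%). E2F letters were in 2 of those 21 mitosis genes and in 5 of 20 G1-S control genes. CCAAT is not contained in the letters of the other motifs, although its ends can share bases with theirs, and 12 members held both CCAAT and E2F letters.

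**Figure D5:**
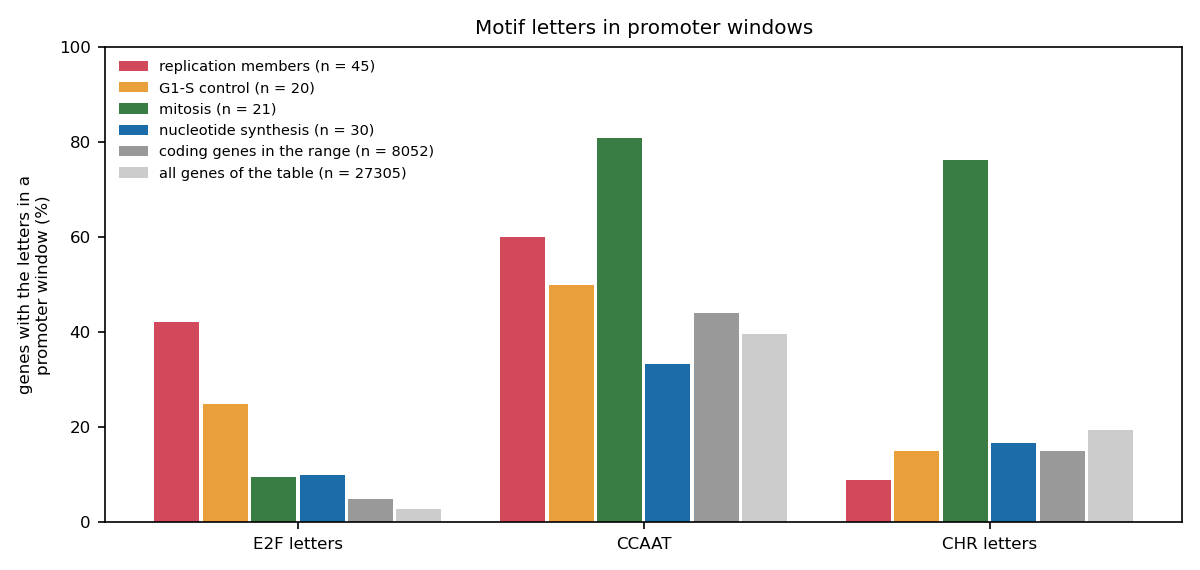
Share of genes (%) with E2F, CCAAT or cell-cycle homology region (CHR) letters in a promoter window. Bars are replication members, 3 related lists, protein-coding genes in the members' range and all genes with a window (labelled all genes of the table). E2F letters were in 42.2% of members and 2.75% of all genes with a window. CHR letters were in 76.2% of mitosis genes and 8.89% of members.

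Members with and without E2F letters had close medians in replicate 2. The median log2 difference of replicate 2 from the others was -0.34 in the 19 members with the letters and -0.32 in the 25 members with a window, a value in every library and no such letters. The medians for protein-coding genes in the range were -0.08 over the 401 that hold the letters and -0.03 over the 7651 that do not. Of the 7 members named above as lowest in replicate 2, GINS3 and CDC6 held the letters, TK1, POLD1, RRM2 and CDC45 had windows without them, and MCM5 was not analysed here. The 9 members with named processed pseudogenes, among them PCNA, RRM2, RPA2 and TYMS, had 16 such copies in the table, the highest at 0.164 FPKM.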

How the data were processed

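From 500 ng of total RNA per SH-SY5Y flask, libraries were prepared with a stranded mRNA kit and read as single reads of 50 bases, per the labels' protocols and the series text. Cufflinks 2.2.1, TopHat2 2.1.1, FastQC 0.10.1, bcl2fastq and hg38 are named in the submitters' processing notes, without roles. The annotation release and the strand setting are unknown here. The authors deposited 1 FPKM value per gene and library. Identifiers were matched to GENCODE 29 on GRCh38 (57046 of 60660), and a name shared by several identifiers (154 names) took the highest mean. Missing values (28 genes) stayed missing, and a test needed at least 2 values.

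Genes with a value above 0 in a library were tested with limma 3.58.1 in R 4.3.3, on log2(FPKM + 0.1) against 1, 10 and 50 FPKM (intercept only, two-sided, Benjamini-Hochberg adjusted p under 0.05); differences on this scale understate those of low genes. The test was tested on simulated data. Pairs were compared within libraries by exact sign-flip tests. Reads were estimated from whole-number steps in genes with 1 transcript of at least 600 bases, less an assumed 200 bases; 96.4% to 96.9% of low values lay within 0.1 of a whole read (chance 20%). Floors and counting errors cover counting only. Motif shares, library differences and lists are descriptions. Summaries used pandas 2.3.3, numpy 2.4.6 and scipy 1.17.1 in Python 3.11.15, with figures by matplotlib 3.10.9.

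All members could be named, and of each list the 3 highest and 2 lowest genes, the markers, and overlapping genes of higher level. Members, lists and pairs were chosen with earlier results of these data known. The 11 alternatives were other pseudocounts, rescalings and filters, each library left out, and summed shared names.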

Additional observations from a re-analysis of the deposited data

How the results depend on the processing

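All 50 members with a value in every library were called above 1 FPKM under all 11 alternatives. The count above 10 FPKM was 37 in TPM, 39 without replicate 1 or replicate 3, and 43 in the others; that above 50 FPKM ran from 11 to 16. TPM moves every gene of replicates 1, 2 and 3 by -0.47, -0.54 and -0.46 log2, and by 0.19, 0.20 and 0.20 with mitochondrial tRNA genes left out of the total, so it acts as another level. Members lowest in replicate 2 numbered 45 to 49 (the TPM runs were chosen after seeing the data), and that count has no value without replicate 2. The median SD over libraries was 0.0964 to 0.223 log2 with a library left out. E2F letters were in 95.6% of members with the 6-letter cores GGCGGG and TGGCGC. These cores were also held by 52.6% of all genes with a promoter window and 84.6% of protein-coding genes in the members' range. TGGCGC lies within TTTGGCGC. Values here are log2 over the level. In TPM, the side of the level changed for GINS1 at 10 FPKM (-0.326) and, at 50 FPKM, for MCM2 (-0.143), MCM5 (-0.391), PRIM1 (-0.398), RPA1 (-0.0108), RPA2 (-0.325) and FEN1 (-0.447). In TPM without those tRNA genes it changed for POLA1 (0.147) and POLE2 (0.144) at 10 FPKM and for MCM6 (0.115), ORC2 (0.110), ORC4 (0.0339), GMNN (0.0739) and TOP1 (0.0041) at 50. With 1 library left out, POLA1 ranged from -0.1006 to 0.0429 and POLE2 from -0.1459 to 0.0671 at 10 FPKM, and at 50 FPKM MCM5 from -0.0459 to 0.3207, MCM6 from -0.2077 to 0.0784, PRIM1 from -0.0957 to 0.2196, POLD1 from -0.3580 to 0.0012 and FEN1 from -0.0993 to 0.2336. RRM2 minus RRM2B ranged from -0.0124 to 0.6053. Of these genes, RPA1 alone was called on its first side, above 50 FPKM, with all libraries as deposited, and none passed the test on the other side. No paired comparison between groups was possible because the series has 1 group.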

Other observations

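Among the genes of the pathway, comparison and marker lists with means in the members' range, the 4 furthest from the other libraries in replicate 2 in each direction are given here, ranked after their values were seen. E2F2, which encodes an activating E2F factor, had 9.11, 5.19 and 9.16 FPKM in replicates 1, 2 and 3. The transferrin receptor gene TFRC, a housekeeping list gene, had 91.0, 57.3 and 89.2 FPKM, the cyclin E gene CCNE2 7.46, 4.795 and 7.59, and DNA2, a nuclease and helicase gene, 13.5, 9.71 and 15.0. In the other direction, TK2, the mitochondrial thymidine kinase gene, had 10.6, 13.2 and 7.60 FPKM, POLD4 5.06, 7.72 and 5.49, RRM2B 59.1, 88.5 and 69.2, and POLG2, the accessory subunit gene of the mitochondrial polymerase, 19.5, 28.0 and 21.7. Each flask is a single sample, and none of these differences was tested.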
